A study of Mus musculus with 12 samples.

Results

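The genes described here are 33 smooth muscle contractile genes, which encode the filaments, the regulatory proteins, the anchoring structures and the small heat shock proteins of the muscle cell. They were taken by gene symbol from a table of 55335 mouse genes, and each symbol matched 1 row. A mean of at least 1 FPKM (fragments scaled to transcript length and library size) over all libraries was reached by 30 of the 33, and the 13794 genes that reached it were tested. Myocd, Casq2 and Itga8 lay below that level and are given by their values only. RNA was sequenced from the colon of wild-type mice with colitis, and 4 groups of 3 libraries were compared. The groups were mice given 2,4,6-trinitrobenzenesulfonic acid (TNBS) and thymopentin, mice given TNBS and normal saline, mice given dextran sulfate sodium (DSS) and thymopentin, and mice given DSS and normal saline. TNBS is a hapten given to provoke an immune colitis, DSS is a polymer that damages the colonic epithelium, and thymopentin is a synthetic peptide taken from the thymic hormone thymopoietin. All 4 groups had colitis, and no colon without colitis was among the libraries. Not given in the sources used here were the strain, age, sex, dose and timing. The labels do not say whether each library came from a separate mouse, so the p-values measure the spread between these libraries, which may be technical.

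Smooth muscle of the colon forms the circular and longitudinal layers of the muscularis externa and the thinner muscularis mucosae, which mix and move the contents of the gut. Contraction starts when calcium and calmodulin activate myosin light chain kinase, which phosphorylates the regulatory light chain of myosin, and it ends when myosin phosphatase removes the phosphate. Actin filaments run between dense bodies in the cytoplasm and dense plaques at the membrane, which intermediate filaments of desmin and synemin join. Many of these genes are switched on by serum response factor (SRF), which binds the CArG box, together with its coactivator myocardin.

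Because these genes share SRF as a known regulator, the bases before the transcription start were searched for the CArG box on both strands, in the RefSeq promoter table of build GRCm38.p6. This table is of another build than the expression values, and it was used for sequence alone. Of the 33 genes, 28 had an entry, and those named without one are Myh11, Cryab, Tagln, Actg2 and Myocd. Within the 250 bases before the start, the exact motif was present in 2 of the 28 genes (7.14%), Myl9 and Ldb3, and in 1.62% of the 27025 genes of the table. With at most 1 base other than A or T allowed in its central run, it was present in 7 of the 28 (25%), and in 9.78% of all genes. The 7 were Acta2, Myl9, Ldb3, Hspb6, Jph2, Popdc2 and Synm. A match of letters is a description and does not show that the factor binds there. Acta2 and Myl9 are shown because each holds 2 matches and Ldb3 because it holds the exact motif, with the matched bases in capitals, 5′ to 3′ toward the start. They lie at chr19:34255374-34255623 on the minus strand, chr2:156775214-156775463 on the plus strand and chr14:34588608-34588857 on the minus strand. The Acta2 matches begin 84 and 34 bases before the start, those of Myl9 161 and 99 bases before it, and that of Ldb3 109 bases before it.
Acta2: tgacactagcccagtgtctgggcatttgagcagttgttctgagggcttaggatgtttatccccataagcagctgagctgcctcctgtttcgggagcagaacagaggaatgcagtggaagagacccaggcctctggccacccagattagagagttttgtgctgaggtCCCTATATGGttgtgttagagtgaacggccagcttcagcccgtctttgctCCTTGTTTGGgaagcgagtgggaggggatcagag
Myl9: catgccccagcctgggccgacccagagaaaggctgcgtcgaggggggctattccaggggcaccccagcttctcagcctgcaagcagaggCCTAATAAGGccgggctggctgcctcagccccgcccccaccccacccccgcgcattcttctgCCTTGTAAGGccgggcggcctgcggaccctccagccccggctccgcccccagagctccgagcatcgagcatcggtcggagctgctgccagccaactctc
Ldb3: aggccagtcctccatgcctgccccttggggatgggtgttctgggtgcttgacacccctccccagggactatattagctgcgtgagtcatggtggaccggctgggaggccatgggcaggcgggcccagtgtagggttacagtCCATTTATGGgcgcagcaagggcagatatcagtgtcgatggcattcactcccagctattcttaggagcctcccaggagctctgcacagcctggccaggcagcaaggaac

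FPKM is scaled to transcript length, so levels can be set side by side between genes. The most abundant of the 33 over all 12 libraries was Tagln, with a mean of 497 FPKM, followed by Actg2 at 479.6, Acta2 at 430.4 and Myl9 at 363 FPKM. These encode an actin-binding protein, the enteric and the vascular type of smooth muscle actin and the regulatory light chain of myosin. Next came Cnn1 at 237 and Des at 234 FPKM, and Myh11, the smooth muscle myosin heavy chain, stood at 143 FPKM. At the low end stood Casq2 at 0.819, Itga8 at 0.78 and Myocd at 0.332 FPKM. The order of Tagln, Actg2 and Acta2 was not the same in each group, and in the TNBS groups and DSS thymopentin they did not differ beyond their standard deviations. In DSS saline, Tagln at 856 ± 93 FPKM stood above Acta2 at 657 ± 50.3 FPKM by more than both deviations, with Actg2 at 710.4 ± 131 FPKM between them (SD, n = 3). Genes of near-identical sequence (the actins Acta2, Actg2 and Acta1, and the tropomyosins) can share reads, and their assignment to either gene remains not given in the sources used here.

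Together the 33 genes made up 0.634, 0.63 and 0.853% of the summed FPKM in the TNBS thymopentin libraries and 0.528, 0.297 and 0.868% in the TNBS saline libraries. The share was 0.66, 0.439 and 0.63% in the DSS thymopentin libraries, against 0.958, 0.94 and 1.06% in the DSS saline libraries. The 3 DSS saline libraries were therefore the highest of the 12 and lay close together, whereas the TNBS saline libraries spread widely. TNBS saline 2 was the lowest library of its group for all 33 genes and the lowest of all 12 for 28 of them, and TNBS saline 3 was the highest of its group for 32. TNBS thymopentin 3 was the highest of its group for 32 of the 33, and DSS thymopentin 2 was the lowest of its group for 30. The median ratio of the highest to the lowest library over the 30 tested genes was 1.58 in TNBS thymopentin, 2.501 in TNBS saline, 1.54 in DSS thymopentin and 1.21 in DSS saline. TNBS saline 3 also differed in Hoxb13, a homeobox gene expressed in distal colon and rectum. It held 0.722 FPKM there, where the other TNBS saline libraries held 50.04 and 86.9, and the remaining groups held 89.8, 87.4 and 49.4 FPKM in TNBS thymopentin, 122, 109 and 104 FPKM in DSS thymopentin and 52.8, 59.9 and 65.4 FPKM in DSS saline. Values with and without these libraries are given beside the comparisons they touch.

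**Figure D1:**
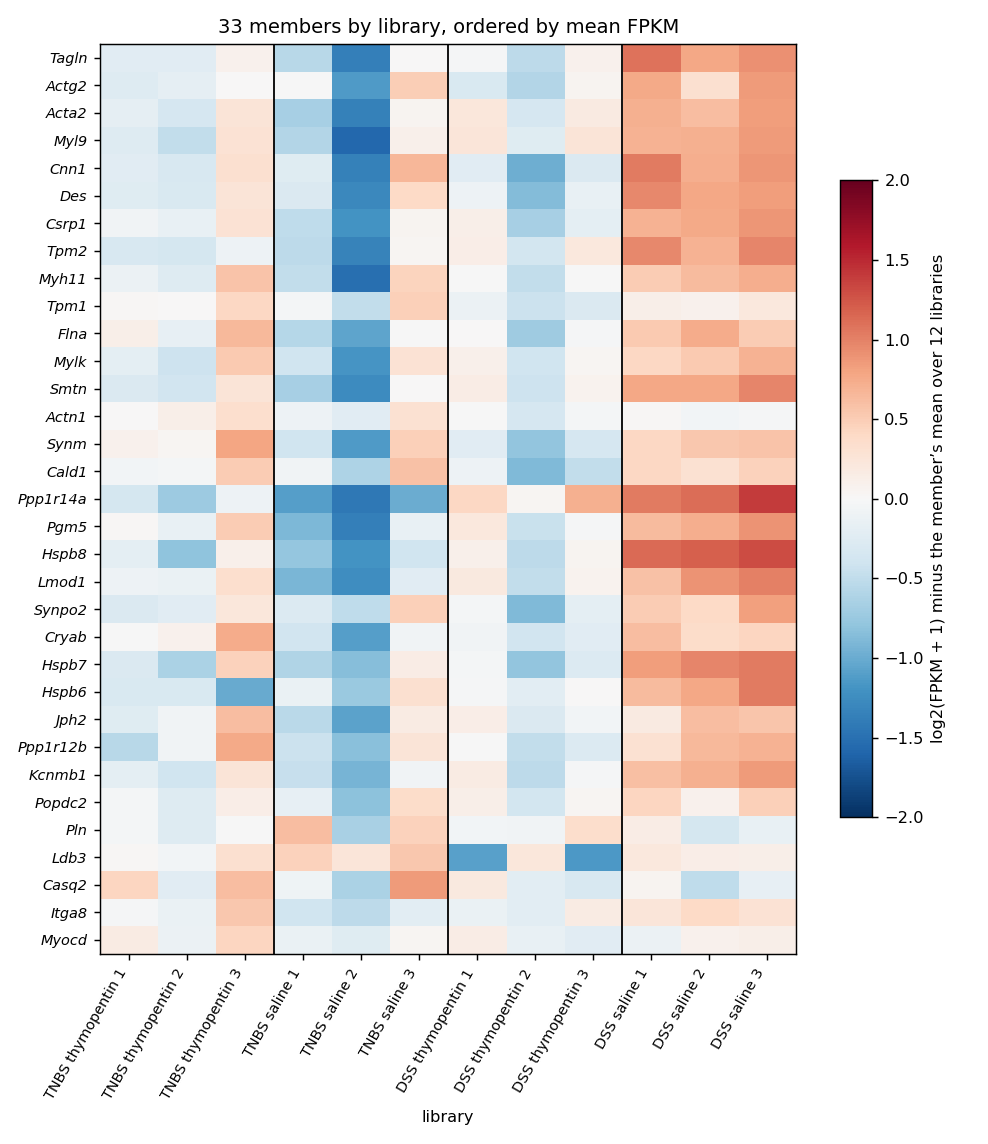
Each row is 1 of the 33 genes and each column 1 library, and the colour gives log2(FPKM + 1) minus the mean of that gene over the 12 libraries (red above, blue below). The DSS saline columns are red in most rows, TNBS saline 2 is the bluest column, and Ldb3, Pln, Casq2 and Actn1 depart from the common pattern.

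With DSS, 11 contractile genes, among them those of transgelin, calponin and desmin, were lower in mice given thymopentin than in mice given saline. At an adjusted p under 0.05 from limma on log2(FPKM + 1), 11 of the 30 tested genes fell and 0 rose, where 4.3% of all tested genes were called lower and 17% were called in either direction. The 11 were Tagln, Cnn1, Lmod1, Csrp1, Des, Synpo2, Kcnmb1, Ppp1r14a, Hspb6, Hspb7 and Hspb8, and their log2 fold changes lay between -1.38 (Cnn1) and -0.80 (Ppp1r14a). The median over the 30 genes was -0.84, against 0.12 over all tested genes, and 29 of the 30 lay below 0, as did 33.9% of all tested genes. In 27 of the 33 genes, 26 of them tested, every DSS thymopentin library lay below every DSS saline library, a pattern that 11.5% of all tested genes showed. Fold changes on this scale understate those of low genes, and in whole tissue fewer cells of a type and less RNA per cell cannot be told apart. Over all tested genes 1753 were called higher and 593 lower, and after rescaling by the median of ratios 800 were called higher and 1019 lower, with the median over all genes moving to -0.01. That rescaling gave 14 of the 30 members lower and 0 higher.

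**Figure D2:**
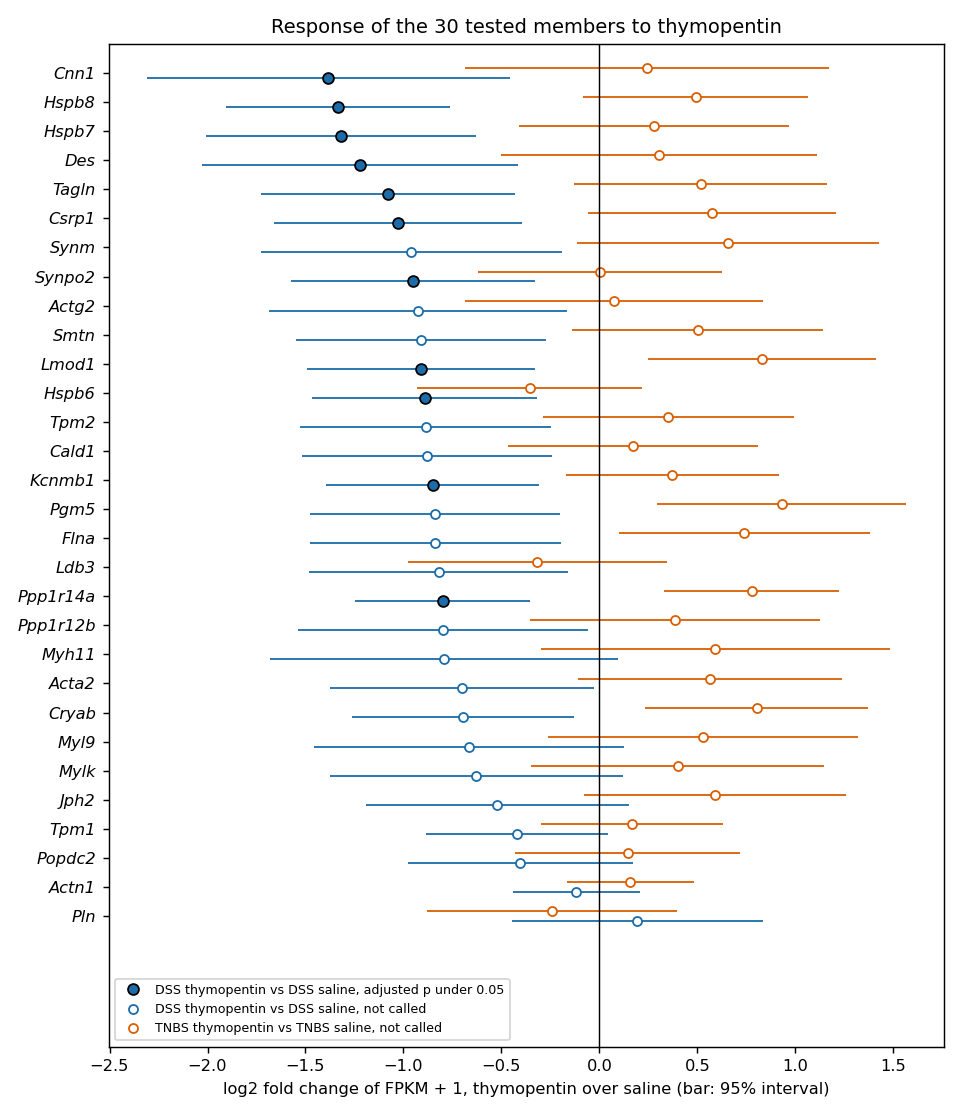
The log2 fold change (FPKM + 1) of thymopentin over saline is drawn for the 30 tested genes in DSS (blue, filled where the adjusted p was under 0.05) and TNBS (orange), with 95% intervals. In DSS, 29 of the 30 points lie left of 0 and 11 are filled, whereas in TNBS 27 lie right of 0 and 0 are filled.

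Among the genes of the thin filament and its binding proteins, Tagln, Cnn1 and Lmod1 fell. Tagln had 440.2, 313 and 475 FPKM in the DSS thymopentin libraries, against 952, 767 and 850.1 FPKM in the DSS saline libraries, and the groups did not overlap (log2 fold change -1.08, SE 0.29, adjusted p = 0.0325). Tagln encodes transgelin (SM22), an actin-binding protein used as a marker of differentiated smooth muscle. Cnn1 had 180.1, 106 and 173 FPKM in the DSS thymopentin libraries, against 436, 352 and 389 FPKM in the DSS saline libraries, a change of -1.38 on the log2 scale (SE 0.42, adjusted p = 0.0466). Every thymopentin library of Cnn1, which encodes calponin, a brake on the myosin ATPase, lay below 352 FPKM, the lowest saline value. Lmod1 had 12.9, 7.55 and 11.6 FPKM in the DSS thymopentin libraries, against 17.2, 21.6 and 23.3 FPKM in the DSS saline libraries (log2 fold change -0.91, SE 0.26, adjusted p = 0.0401). Lmod1 encodes leiomodin, which nucleates actin filaments.

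The actins themselves pointed the same way without passing the test. Acta2 had 466, 314 and 449 FPKM in the DSS thymopentin libraries, against 654, 609 and 709 FPKM in the DSS saline libraries (log2 fold change -0.70, SE 0.30, adjusted p = 0.135). Actg2 had 364, 298 and 464 FPKM in the DSS thymopentin libraries, against 761, 562 and 808 FPKM in the DSS saline libraries (log2 fold change -0.92, SE 0.34, adjusted p = 0.0874). In both actins the groups did not overlap, and DSS thymopentin 2 was the lowest library. Smtn, which encodes smoothelin, averaged 32.3 ± 6.68 FPKM in DSS thymopentin and 60.9 ± 5.16 FPKM in DSS saline (adjusted p = 0.0536). Of the tropomyosins, which lie along the actin filament, Tpm2 averaged 143 ± 29.7 FPKM in DSS thymopentin and 263 ± 28 FPKM in DSS saline (adjusted p = 0.0586), and Tpm1 averaged 59.9 ± 6.79 FPKM in DSS thymopentin and 80.2 ± 3.79 FPKM in DSS saline (adjusted p = 0.186). Cald1, which encodes caldesmon, averaged 12.8 ± 3.72 FPKM with thymopentin and 23.9 ± 1.45 FPKM with saline (adjusted p = 0.0593). Values after ± are SDs over 3 libraries. None of these 6 genes was called, although the libraries of the thymopentin and saline groups did not overlap in any of them. Flna, which encodes filamin A, averaged 59 ± 15.4 FPKM in DSS thymopentin and 104 ± 9.65 FPKM in DSS saline (adjusted p = 0.07), whereas Actn1, which encodes an alpha-actinin also made in other cell types, averaged 25.5 ± 3.27 FPKM in DSS thymopentin and 27.6 ± 0.8004 FPKM in DSS saline with overlapping libraries (adjusted p = 0.613).

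In the myosin group, the only called gene was Ppp1r14a, which encodes CPI-17, an inhibitor of myosin phosphatase. Ppp1r14a had 20.5, 15.7 and 25.4 FPKM in the DSS thymopentin libraries, against 32.4, 34 and 41.7 FPKM in the DSS saline libraries (log2 fold change -0.80, SE 0.20, adjusted p = 0.0245), and the groups did not overlap. The motor and its kinase did not pass the test. Myh11 had 132, 93.3 and 131 FPKM in the DSS thymopentin libraries, against 187, 206 and 219.8 FPKM in the DSS saline libraries (log2 fold change -0.79, SE 0.40, adjusted p = 0.192). Mylk had 41.1, 28.7 and 39.3 FPKM in the DSS thymopentin libraries, against 51.3, 55.2 and 62.2 FPKM in the DSS saline libraries (log2 fold change -0.63, SE 0.34, adjusted p = 0.218). Mylk encodes the myosin light chain kinase. Neither gene had an overlap between the groups, and the gap for Mylk lay between 41.1 FPKM in the highest thymopentin library and 51.3 FPKM in the lowest saline library. The light chain Myl9 averaged 356 ± 65.7 FPKM in DSS thymopentin and 559 ± 34.9 FPKM in DSS saline (adjusted p = 0.217). Ppp1r12b, a targeting subunit of myosin phosphatase, averaged 5.14 ± 1.05 FPKM with thymopentin and 9.65 ± 1.5 FPKM with saline (adjusted p = 0.121).

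Of the intermediate filament, dense body and dense plaque genes, Des, Csrp1 and Synpo2 fell. Des had 198, 116 and 192 FPKM in the DSS thymopentin libraries, against 412, 361 and 379.7 FPKM in the DSS saline libraries (log2 fold change -1.22, SE 0.36, adjusted p = 0.0443), so that even the highest thymopentin library stood below every saline library. Des encodes desmin, the intermediate filament of muscle. Csrp1 had 220.3, 129 and 177 FPKM in the DSS thymopentin libraries, against 332, 345 and 375 FPKM in the DSS saline libraries (log2 fold change -1.03, SE 0.29, adjusted p = 0.0355). Csrp1 encodes a LIM domain protein that binds alpha-actinin. Synpo2 had 9.47, 4.84 and 8.43 FPKM in the DSS thymopentin libraries, against 14.3, 13.2 and 18.2 FPKM in the DSS saline libraries (log2 fold change -0.95, SE 0.28, adjusted p = 0.0435). Synpo2 encodes synaptopodin 2, which bundles actin at Z-discs and dense bodies. Synm, which encodes the desmin partner synemin, averaged 13.6 ± 2.86 FPKM in DSS thymopentin and 27 ± 1.67 FPKM in DSS saline, without overlap but without a call (adjusted p = 0.081). Pgm5, which encodes aciculin of the adhesion plaque, averaged 16.1 ± 3.8 FPKM in DSS thymopentin and 29.1 ± 2.81 FPKM in DSS saline, again without a call (adjusted p = 0.0687). Ldb3, a Z-disc gene, was uneven. Ldb3 had 0.425, 2.55 and 0.375 FPKM in the DSS thymopentin libraries, against 2.51, 2.34 and 2.28 FPKM in the DSS saline libraries, so 2 of the 3 thymopentin libraries were far below the other one, which was above every saline library (adjusted p = 0.082). Itga8, an integrin chain of smooth muscle and below the filter, had 0.586, 0.502 and 0.95 FPKM in DSS thymopentin and 1.05, 1.29 and 1.123 FPKM in DSS saline.

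Among channel, calcium store and membrane genes, Kcnmb1 fell. Kcnmb1 had 4.09, 2.16 and 3.44 FPKM in the DSS thymopentin libraries, against 5.91, 6.45 and 7.14 FPKM in the DSS saline libraries (log2 fold change -0.85, SE 0.25, adjusted p = 0.04), and the groups did not overlap. Kcnmb1 encodes the beta-1 subunit of the large-conductance calcium-activated potassium channel, which relaxes smooth muscle. Jph2, whose junctophilin ties the calcium store to the cell membrane, averaged 6.14 ± 1.07 FPKM in DSS thymopentin and 9.26 ± 1.61 FPKM in DSS saline (adjusted p = 0.253). Popdc2, which encodes a cyclic AMP binding membrane protein, averaged 3.36 ± 0.751 FPKM in DSS thymopentin and 4.74 ± 0.798 FPKM in DSS saline (adjusted p = 0.301). Pln was the 1 tested gene of the 30 above 0. Pln had 2.23, 2.18 and 3.25 FPKM in the DSS thymopentin libraries, against 2.71, 1.61 and 2.01 FPKM in the DSS saline libraries (log2 fold change 0.19, adjusted p = 0.674), and the groups overlapped. Pln encodes phospholamban, which restrains the calcium pump of the store. Casq2, the calcium-storing calsequestrin and below the filter, had 0.988, 0.495 and 0.387 FPKM with thymopentin and 0.796, 0.224 and 0.551 FPKM with saline, also overlapping.

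The small heat shock genes Hspb8 and Hspb7 had the smallest p-values of the 30 genes. Hspb8 had 14.1, 8.76 and 13.5 FPKM in the DSS thymopentin libraries, against 29.7, 31 and 33.8 FPKM in the DSS saline libraries (log2 fold change -1.34, SE 0.26, adjusted p = 0.00915). Hspb8 works with the cochaperone BAG3 in clearing damaged filament proteins, and its highest thymopentin library reached less than the lowest saline library, 14.1 against 29.7 FPKM. Hspb7 had 6.72, 3.63 and 5.6 FPKM in the DSS thymopentin libraries, against 13.3, 14.7 and 15.3 FPKM in the DSS saline libraries (log2 fold change -1.32, SE 0.31, adjusted p = 0.0196). Hspb6 had 6.59, 5.68 and 6.78 FPKM in the DSS thymopentin libraries, against 11, 12.2 and 14.9 FPKM in the DSS saline libraries (log2 fold change -0.89, SE 0.26, adjusted p = 0.0411). Hspb6 is a phosphorylated chaperone linked to relaxation of smooth muscle, and Hspb7 is a muscle chaperone. The fourth gene, Cryab, which encodes alpha B-crystallin, a chaperone of desmin, averaged 6.81 ± 0.855 FPKM in DSS thymopentin and 11.6 ± 1.15 FPKM in DSS saline, without overlap and without a call (adjusted p = 0.0849). The coactivator Myocd, below the filter, had 0.462, 0.186 and 0.129 FPKM in DSS thymopentin and 0.22, 0.3998 and 0.436 FPKM in DSS saline, with overlapping groups.

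**Figure D3:**
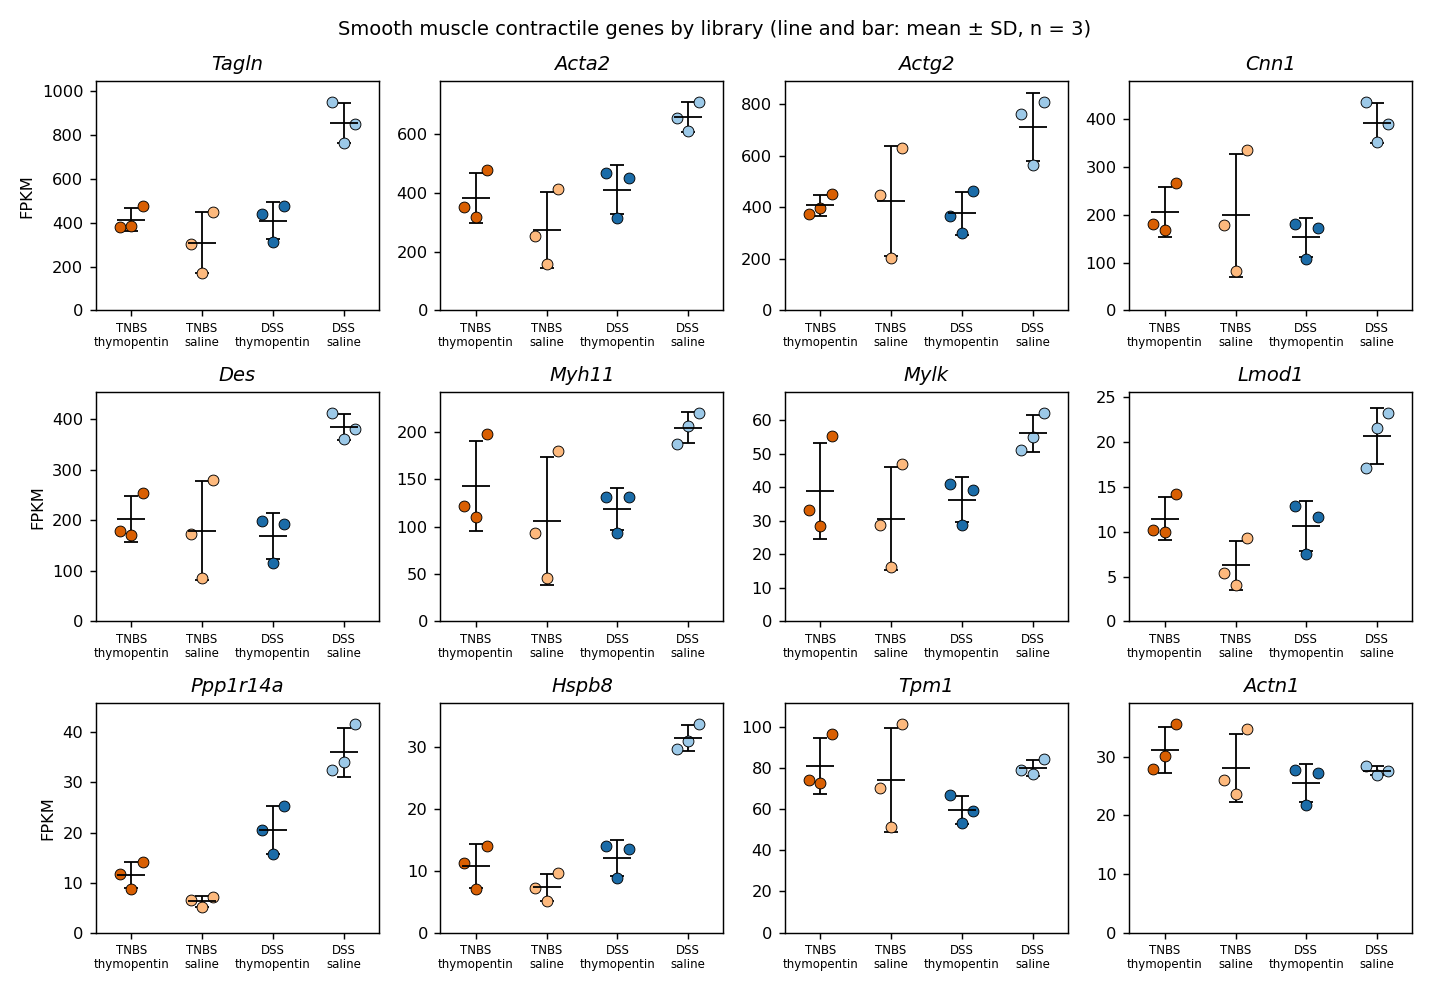
FPKM of 12 of the genes is plotted for each library of the 4 groups, with the mean and SD over 3 libraries. In DSS the thymopentin points lie below the saline points in each gene drawn except Actn1, and TNBS saline holds the widest spread in the abundant filament genes.

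The call of Hspb8 held under all 21 alternative settings, with an adjusted p of at most 0.0392. Hspb7 lost its call without DSS saline 3 or DSS thymopentin 2, with an adjusted p of up to 0.0739, and Ppp1r14a lost it when any of DSS saline 3, DSS thymopentin 1 and DSS thymopentin 2 was left out or with no filter on low values, up to 0.0906. The other 8 calls were lost when any of 5 to 10 of the 12 libraries was left out. The number of genes called lower was 7, 2 and 3 without DSS thymopentin 1, 2 and 3, and 3, 4 and 1 without DSS saline 1, 2 and 3. It was 5, 7 and 11 without TNBS thymopentin 1, 2 and 3, and 4, 18 and 18 without TNBS saline 1, 2 and 3, since all 12 libraries share 1 estimate of spread. A fit of the 6 DSS libraries alone called 24 genes lower and 0 higher. Over all 13794 tested genes it called 557 lower and 1101 higher. With no filter on low values, which tests more genes, 2 were called lower, as were 502 of all 34209 tested. No tested gene changed sign under any alternative in this comparison. In the authors' deposited table of selected DSS genes, 17 of the 33 were listed, each with a negative log2 fold change. It holds 2326 of the 55335 genes, all 2326 with an authors' p under 0.05 before adjustment and an absolute log2 fold change above 1. The values come from the same libraries, so the listing is no separate evidence. Reads recovered from that table for Hspb8 numbered 1050, 553 and 1058 in the thymopentin libraries and 2414, 2339 and 2534 in the saline libraries.

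With TNBS, no change of a contractile gene passed the test. Of the 30 tested genes, 0 were called higher and 0 lower. Over all tested genes limma called 0.283% higher, 0.384% lower and 0.667% either way. Before adjustment, 5 of the 30 had a limma p under 0.05. Ordered by this p over all 13794 tested genes, the 5 held ranks from 317 (Ppp1r14a) to 1205 (Flna). The next of the 30, Csrp1, missed that level at rank 2179. At least 1205 but fewer than 2179 of all tested genes therefore reached it, so the 5 are given as a count and not as a sign of a response. Most values lay above 0, with a median log2 fold change of 0.39 against 0.03 over all tested genes, and with 27 of the 30 above 0, as were 56.7% of all tested genes. Without TNBS saline 2, 19 of the 30 lay above 0. The median also rested on single libraries. Leaving out TNBS saline 2 gave 0.09, leaving out TNBS saline 3 gave 0.72 and leaving out TNBS thymopentin 3 gave 0.23. In 4 tested genes, Lmod1, Pgm5, Ppp1r14a and Cryab, and in Itga8, every thymopentin library lay above every saline library, while 12.1% of all tested genes showed this. The opposite pattern was seen in 0 of the 30 genes and in 6.75% of all tested genes. The labels do not pair libraries. Outside the main fit, same-numbered TNBS libraries were treated as pairs because their deviations correlated at 0.12, 0.27 and 0.48, although thymopentin 1 correlated more with saline 2 (0.29). With the replicate number as a block in limma, 1 gene, Ppp1r14a, was called higher (adjusted p = 0.0488), as were 25 of all 13794 tested genes. Within these assumed pairs the thymopentin library was higher in all 3 for 18 of the 30 genes, among them Acta2, Myh11, Tagln and Mylk. The same held for 26.1% of all tested genes. The thymopentin library was lower in all 3 pairs for 1 gene, Ldb3, and for 16% of all tested genes. Weighting the libraries by their estimated quality called 5 genes higher (Lmod1, Flna, Pgm5, Ppp1r14a and Cryab) and 1 lower (Pln). That weighting called 1591 of all 13794 tested genes higher and 956 lower, and its estimation did not reach its convergence tolerance.

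The gene with the smallest p was Ppp1r14a. Ppp1r14a had 11.6, 8.76 and 14 FPKM in the TNBS thymopentin libraries, against 6.55, 5.03 and 7.09 FPKM in the TNBS saline libraries (log2 fold change 0.78, SE 0.20, adjusted p = 0.125). Pgm5 had 17, 15.08 and 24.3 FPKM in the TNBS thymopentin libraries, against 8.56, 5.89 and 15.07 FPKM in the TNBS saline libraries (log2 fold change 0.93, SE 0.29, adjusted p = 0.199). Lmod1 had 10.2, 9.99 and 14.2 FPKM in the TNBS thymopentin libraries, against 5.38, 4.11 and 9.26 FPKM in the TNBS saline libraries (log2 fold change 0.83, SE 0.26, adjusted p = 0.213). In these genes the lowest thymopentin library stood above the highest saline library, for Pgm5 only just. Cryab had 8.08, 8.7 and 14.3 FPKM in the TNBS thymopentin libraries, against 5.95, 3.23 and 7.65 FPKM in the TNBS saline libraries (log2 fold change 0.80, SE 0.26, adjusted p = 0.216), also without overlap. Itga8 had 0.708, 0.58 and 1.54 FPKM in TNBS thymopentin, against 0.322, 0.209 and 0.498 FPKM in TNBS saline. The authors' deposited table of selected TNBS genes holds 1173 of the 55335 genes. Itga8 was the 1 gene of the 33 listed there, at a log2 fold change of 1.34 (FDR 0.0561). Its recovered reads were 217, 167 and 453 in the thymopentin libraries and 102, 58 and 164 in the saline libraries.

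The abundant filament genes overlapped between the TNBS groups when the libraries were taken without pairing. Acta2 had 350.3, 316 and 477 FPKM in the TNBS thymopentin libraries, against 251, 156 and 414 FPKM in the TNBS saline libraries (log2 fold change 0.56, SE 0.30, adjusted p = 0.492). Actg2 had 373, 398 and 449.7 FPKM in the TNBS thymopentin libraries, against 446, 203 and 628 FPKM in the TNBS saline libraries (log2 fold change 0.08, SE 0.34, adjusted p = 0.963). Myh11 had 122, 110.0 and 197 FPKM in the TNBS thymopentin libraries, against 93.2, 45.8 and 179 FPKM in the TNBS saline libraries (log2 fold change 0.59, SE 0.40, adjusted p = 0.606). In each the saline libraries 2 and 3 were the lowest and the highest of their group, and the thymopentin values overlapped their range. Tagln had 382, 384 and 476 FPKM in the TNBS thymopentin libraries, against 305, 173 and 450.4 FPKM in the TNBS saline libraries (log2 fold change 0.52, SE 0.29, adjusted p = 0.52). Cnn1 had 181, 168 and 265 FPKM in the TNBS thymopentin libraries, against 177, 81.8 and 336 FPKM in the TNBS saline libraries (log2 fold change 0.24, SE 0.42, adjusted p = 0.877). Des had 179.8, 172 and 254 FPKM in the TNBS thymopentin libraries, against 173, 86 and 280.0 FPKM in the TNBS saline libraries (log2 fold change 0.30, SE 0.36, adjusted p = 0.806). The genes of transgelin, calponin and desmin thus showed the same order of saline libraries. Mylk had 33.2, 28.5 and 55.2 FPKM in the TNBS thymopentin libraries, against 28.7, 16.3 and 46.9 FPKM in the TNBS saline libraries (log2 fold change 0.40, SE 0.34, adjusted p = 0.695). Without TNBS saline 2 the log2 fold change of Actg2 was -0.38, that of Cnn1 -0.28 and that of Des -0.15, and those of Synpo2, Cald1, Popdc2, Tpm1 and Tpm2 were below 0 as well. Hspb6 was the tested gene with the lowest fold change. Hspb6 had 5.27, 5.25 and 2.85 FPKM in the TNBS thymopentin libraries, against 6.09, 3.64 and 8.64 FPKM in the TNBS saline libraries (log2 fold change -0.36, SE 0.26, adjusted p = 0.635), again overlapping. Myocd had 0.475, 0.224 and 0.77 FPKM in TNBS thymopentin, against 0.207, 0.115 and 0.36 FPKM in TNBS saline, and Casq2 had 1.34, 0.492 and 1.66 FPKM in TNBS thymopentin, against 0.629, 0.125 and 2.15 FPKM in TNBS saline. The remaining 18 tested genes were likewise not called.

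The response to thymopentin was compared between the models by testing the DSS log2 fold change minus the TNBS one. For 6 of the 30 genes this difference was called, all of them negative, where 2.42% of all tested genes were called lower, 2.73% higher and 5.15% in either direction. The median difference was -1.25, against 0.11 over all tested genes. Ppp1r14a gave the smallest p (-1.58 ± 0.28 SE, adjusted p = 0.0171). It averaged 20.5 ± 4.83 FPKM in DSS thymopentin and 36 ± 4.93 FPKM in DSS saline, but 11.5 ± 2.64 FPKM in TNBS thymopentin and 6.23 ± 1.07 FPKM in TNBS saline. Hspb8 differed by -1.83 ± 0.37 (adjusted p = 0.024), with 12.1 ± 2.91 FPKM in DSS thymopentin, 31.5 ± 2.07 FPKM in DSS saline, 10.8 ± 3.51 FPKM in TNBS thymopentin and 7.31 ± 2.26 FPKM in TNBS saline. Lmod1 differed by -1.74 ± 0.37, adjusted p = 0.0294, and Pgm5 by -1.77 ± 0.41, adjusted p = 0.0374. The mean of both genes was lower with thymopentin than with saline in DSS and higher in TNBS. Cryab differed by -1.498 ± 0.36, adjusted p = 0.0438, and Csrp1 by -1.60 ± 0.40, adjusted p = 0.0491. Cnn1, Des and Hspb7, which were called in DSS, were not called here (adjusted p = 0.137, 0.112 and 0.0647). With the replicate number as a block 13 genes were called lower, namely Acta2, Tagln, Synm, Smtn, Flna, Kcnmb1 and Hspb7 (adjusted p = 0.0292) besides these 6, and the DSS numbers entered that fit although they share only a number. Over all 13794 tested genes the block called 322 lower and 267 higher. With no filter on low values 1 gene was called, as were 355 of all 34209 tested. Single libraries decided most of the calls: 0 genes were called without DSS saline 3, 1 when TNBS saline 1 or TNBS thymopentin 1 was left out, and 19 when TNBS saline 3 was. The count was 2 without DSS saline 2, DSS thymopentin 2, DSS thymopentin 3, TNBS saline 2 or TNBS thymopentin 3, and 3 without DSS saline 1. Ppp1r14a lost its call only without DSS saline 3, where the adjusted p was 0.0507. Over all tested genes 376 were called higher and 334 lower, and 223 higher and 437 lower after rescaling by the median of ratios, which called 7 of the 30 members lower.

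The saline groups of both models were compared next. In DSS saline, 20 of the 30 genes were higher than in TNBS saline and 0 were lower, where 15.2% of all tested genes were called higher and 31.5% lower. The median log2 difference was 1.14, against -0.14 over all tested genes, and 21 of the 30 were without overlap above, as were 18.8% of all tested genes. Model and any difference in handling cannot be told apart, and the DSS saline libraries also serve as the controls of the DSS thymopentin comparison. Ppp1r14a had 32.4, 34 and 41.7 FPKM in DSS saline, against 6.55, 5.03 and 7.09 FPKM in TNBS saline (log2 fold change 2.36, SE 0.20, adjusted p = 4.1e-05). Hspb8 had 29.7, 31 and 33.8 FPKM in DSS saline, against 7.2, 5.11 and 9.61 FPKM in TNBS saline (log2 fold change 2.002, SE 0.26, adjusted p = 0.000247). Both the phosphatase inhibitor and the chaperone were higher in every DSS saline library. Lmod1 differed by 1.63 ± 0.26, adjusted p = 0.000771, Tagln by 1.57 ± 0.29, adjusted p = 0.00169 and Acta2 by 1.37 ± 0.30, adjusted p = 0.00433. Not called were Actg2 (0.87, adjusted p = 0.0606), Synm, Synpo2, Cald1, Ppp1r12b, Popdc2, Tpm1 (0.16), Actn1 (-0.01), Pln and Ldb3. In Ldb3 every DSS saline library lay below every TNBS saline library, at 2.51, 2.34 and 2.28 FPKM in DSS saline against 3.2, 2.61 and 3.41 FPKM in TNBS saline, and 37.7% of all tested genes showed this. The median was 0.71 without TNBS saline 2, and 16 to 26 genes were called higher when 1 library was left out. Calls of Myh11, Cnn1, Des, Mylk and Jph2 were lost in at least 1 alternative, and those of the other 15 genes in 0. Without TNBS saline 2 or with weighted libraries Pln was called lower. Rescaling by the median of ratios called 24 of the 30 higher, and changed the calls over all tested genes to 3031 higher and 2920 lower, against 2090 higher and 4341 lower without it. Markers of several, but not all, other cell types moved with this difference, and their part in it was not tested. Higher in DSS saline were 10 of 11 tested neuron and glia markers, 6 of 6 endothelial, 4 of 5 pericyte, 5 of 7 fibroblast and 5 of 7 leukocyte markers, with 0 lower in each list, while 6 of 11 epithelial markers were lower and 0 higher. The neuron and glia genes summed to 73.3, 82.2 and 94.1 FPKM in DSS saline, against 25.4, 25.5 and 19.5 FPKM in TNBS saline, and the epithelial genes to 5117 to 6305 FPKM in DSS saline, against 6312 to 9756 FPKM in TNBS saline.

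The thymopentin groups of both models were compared in the same way. In DSS thymopentin, 1 of the 30 genes, Ppp1r14a, was higher than in TNBS thymopentin and 0 were lower, where 11% of all tested genes were called higher and 16.5% lower. Ppp1r14a had 20.5, 15.7 and 25.4 FPKM in DSS thymopentin, against 11.6, 8.76 and 14 FPKM in TNBS thymopentin (log2 fold change 0.78, SE 0.20, adjusted p = 0.0171), and the groups did not overlap. Its call was lost without TNBS thymopentin 2 or DSS thymopentin 3, with an adjusted p of up to 0.0703. The median over the 30 genes was -0.19, against -0.04 over all tested genes, and 8 of the 30 lay above 0, as did 45.5% of all tested genes. Without TNBS thymopentin 3 the median was 0.05 and 17 lay above 0. Without DSS thymopentin 2 it was -0.01 and 14 lay above 0. Without overlap, 2 tested genes lay above (Ppp1r14a and Hspb6; background 18.7%) and 5 below (Synm, Tpm1, Cald1, Actn1 and Cryab; background 27.6%). Ldb3 had the lowest fold change (-0.77 ± 0.30, adjusted p = 0.0786), with 0.425, 2.55 and 0.375 FPKM in DSS thymopentin and 2.1, 1.94 and 2.79 FPKM in TNBS thymopentin. Over all tested genes 1524 were called higher and 2275 lower, and 1881 higher and 1818 lower after rescaling by the median of ratios.

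Ratios of related genes were taken within each library. The ratio of Tpm2 to Tpm1, which encode different tropomyosins, was 2.39 ± 0.37 in DSS thymopentin and 3.28 ± 0.26 in DSS saline (SD, n = 3 each; exact permutation p = 0.1, two-sided). It was 1.47 ± 0.09 in TNBS thymopentin and 1.30 ± 0.20 in TNBS saline (exact permutation p = 0.3). Every DSS library had a higher ratio than every TNBS library. The ratio of the enteric actin Actg2 to the vascular actin Acta2 was 1.09 ± 0.16 in TNBS thymopentin and 1.53 ± 0.24 in TNBS saline (exact permutation p = 0.1), and 0.922 ± 0.128 in DSS thymopentin and 1.08 ± 0.13 in DSS saline (exact permutation p = 0.3). All TNBS saline libraries stood above all libraries of the other groups in this ratio. With 3 libraries against 3, an exact two-sided test cannot give a p below 0.1.

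**Figure D4:**
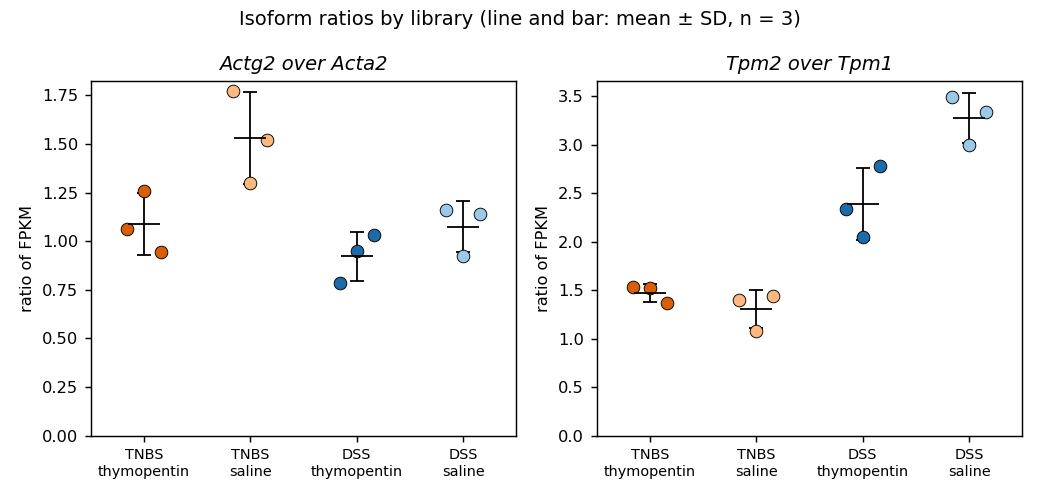
The ratio of FPKM of Actg2 to Acta2 (left) and of Tpm2 to Tpm1 (right) is plotted for each library, with the mean and SD over 3 libraries. The tropomyosin ratio is 2.39 and 3.28 in the DSS groups and 1.47 and 1.30 in the TNBS groups, and the actin ratio is highest in TNBS saline at 1.53.

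Other genes of the contractile pathway were followed in the same comparisons. Of 13 tested genes of contraction signalling (receptors, the calcium and cyclic GMP pathways and others), 1 was lower with thymopentin and 0 higher, with a median of -0.22, where 4.3% of all tested genes were lower. That gene was Tacr2, the neurokinin 2 receptor of gut muscle, with 1.53, 1.21 and 1.217 FPKM in DSS thymopentin and 2.98, 3.92 and 3.88 FPKM in DSS saline (log2 fold change -0.98, SE 0.24, adjusted p = 0.0233). Of 18 further genes of the dense plaque and muscle structure, 1 was lower, Pdlim3, a Z-disc LIM protein (log2 fold change -1.18, SE 0.27, adjusted p = 0.0176), and the median was -0.44. Of 8 tested SRF and myocardin family regulators, Klf4 and Gata6 were higher, as were 12.7% of all tested genes (0.69 ± 0.13, adjusted p = 0.00737, and 0.37 ± 0.08, adjusted p = 0.0127) and Foxf1 was lower (-0.65 ± 0.20, adjusted p = 0.0481). Srf itself had 10.6, 11 and 10.1 FPKM in DSS thymopentin and 8.51, 10.5 and 11.1 FPKM in DSS saline. Klf4 is a repressor of smooth muscle genes that is also abundant in colon epithelium. In TNBS, 0 of the 13, 18 and 8 genes were called. Between the saline groups, 5 signalling genes were higher in DSS (Mrvi1, Gucy1a3, Gucy1b3, Tacr2 and Chrm2) and 3 were lower, and 11 of the 18 structural genes were higher with 1 lower (Vcl), where 15.2% of all tested genes were higher and 31.5% lower.

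Markers of several, but not all, neighbouring cell types in the colon wall moved with the contractile genes in DSS. The part of these markers in the result was not tested. Of 11 tested markers of enteric neurons and glia, 9 were lower with thymopentin and 0 higher, with a median of -0.65, where 4.3% of all tested genes were lower. Their summed level, over 13 listed genes, was 43.4, 26.4 and 44 FPKM in DSS thymopentin, against 73.3, 82.2 and 94.1 FPKM in DSS saline. Snap25, a synaptic membrane protein, had 2.79, 1.57 and 2.65 FPKM with thymopentin and 4.44, 4.86 and 5.51 FPKM with saline (log2 fold change -0.85, SE 0.16, adjusted p = 0.00869). The thymopentin library with the lowest neuronal sum, DSS thymopentin 2, was also the lowest in 30 of the 33 contractile genes. Of 5 tested pericyte and vascular muscle markers, 3 were lower (Kcnj8, Abcc9 and Mcam), and the 9 listed genes summed to 31.3 to 49.5 FPKM in DSS thymopentin and 70.8 to 91.4 FPKM in DSS saline. Kcnj8, a potassium channel subunit of pericytes, changed by -1.37 ± 0.20, adjusted p = 0.00254. Among 7 tested fibroblast markers, 2 were lower (Dcn and Lum), and among 6 endothelial markers 1 (Cldn5). Of 3 tested mesothelium and adipocyte markers 0 were called, with a median of -1.68 and log2 fold changes of -1.72 for Adipoq, -1.68 for Fabp4 and 0.11 for Msln. The 7 listed genes summed to 6.02, 5.1 and 10.3 FPKM in DSS thymopentin, against 24.4, 40.4 and 11.8 FPKM in DSS saline, without overlap. Of the interstitial cells of Cajal, the pacemakers of gut muscle, 0 of 3 tested markers were called. All 3 (Kit, Ano1 and Thbs4) had a log2 fold change above 0, opposite to the contractile genes, as did 66.1% of all tested genes. Their median was 0.33, against 0.12 over all tested genes. Kit had 3.7, 3.36 and 4.37 FPKM in DSS thymopentin and 3.56, 3.87 and 3.37 FPKM in DSS saline, overlapping (log2 fold change 0.06). Ano1 had 26.3, 28.9 and 24.3 FPKM in DSS thymopentin, against 15.4, 4.06 and 15.6 FPKM in DSS saline (log2 fold change 1.30). The 5 listed genes summed to 120, 123 and 109 FPKM in DSS thymopentin, against 88, 72.9 and 95.6 FPKM in DSS saline, without overlap. Kit and Ano1 made up the smaller part of each sum, and the rest came from Thbs4, Etv1 and Prkcq.

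Of 11 tested epithelial markers, Cdh1 and Epcam were higher with thymopentin in DSS (0.44 ± 0.12, adjusted p = 0.0315 for Epcam) and 0 were lower, where 12.7% of all tested genes were higher. The median of the list was 0.13, against 0.12 over all tested genes, and the sum of the 12 listed genes was 5486 to 6329.8 FPKM in DSS thymopentin and 5117 to 6305 FPKM in DSS saline. Of 7 leukocyte markers, 0 were called, and their sum was 165 to 221 FPKM in DSS thymopentin, against 234 to 352 FPKM in DSS saline. The 6 listed distal Hox genes, which mark position along the colon, summed to 170.4, 204 and 159 FPKM in DSS thymopentin and 101, 97.3 and 108 FPKM in DSS saline, without overlap, although 0 of the 4 tested were called. The part of these positional genes in the result was not tested. Markers of striated muscle were low. Their 14 genes summed to 15.5 to 19.5 FPKM in DSS thymopentin and 13 to 15.6 FPKM in DSS saline, Myh4 was at 0 in every library, and 1 of 5 tested was called, Acta1, the skeletal muscle actin. Acta1 had 11.2, 7.74 and 6.29 FPKM in DSS thymopentin and 2.57, 1.98 and 2.19 FPKM in DSS saline (log2 fold change 1.51, SE 0.19, adjusted p = 0.00162), opposite in sign to the smooth muscle actins.

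In TNBS the neuron and glia markers summed to 38.6, 34.6 and 46.6 FPKM with thymopentin, against 25.4, 25.5 and 19.5 FPKM with saline, without overlap, and 0 of 11 were called. The pericyte and vascular muscle sum was 43.7, 38.7 and 79.2 FPKM in TNBS thymopentin and 42.6, 25.8 and 73.9 FPKM in TNBS saline, and it was lowest in TNBS saline 2, as the contractile genes were. Epithelial markers summed to 6188 to 6797 FPKM in TNBS thymopentin and 6312 to 9756 FPKM in TNBS saline, and 10 of 11 had a log2 fold change below 0, with a median of -0.29 against 0.03 over all tested genes. The called gene, Slc26a3, was the 1 above 0. Of the fibroblast markers, 2 of 7 were higher (Dcn and Lum), as were 0.283% of all tested genes. Among 5 tested striated muscle markers Myl7 was lower and Tnnt2 higher, and the sum of the list was 8.61 to 10.7 FPKM in TNBS thymopentin and 21.4 to 29.4 FPKM in TNBS saline. For the difference between the responses, 6 of the 11 neuron and glia markers, 2 of the 5 pericyte markers and 2 of the 7 fibroblast markers were called lower. Of all tested genes 2.42% were. Among the 3 tested Cajal cell markers and the 7 leukocyte markers 0 were called.

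**Figure D5:**
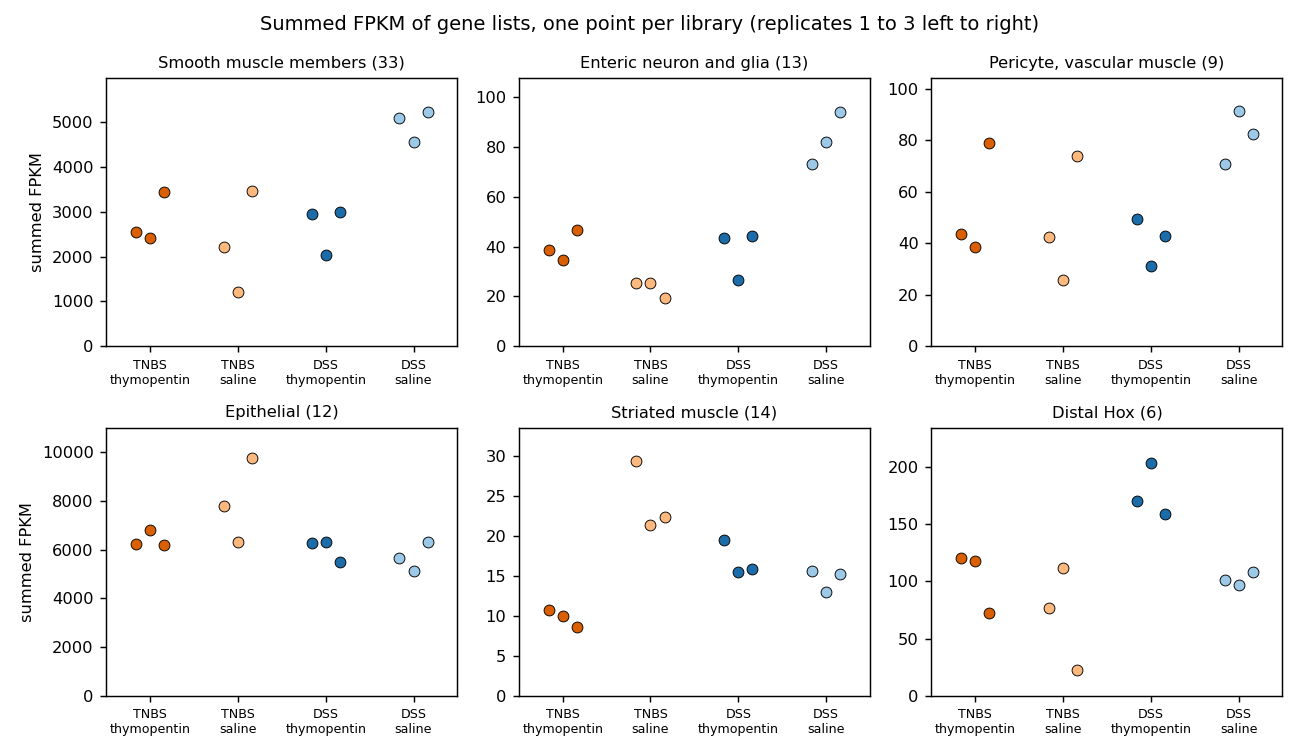
Summed FPKM of the 33 contractile genes and of 5 marker lists is plotted for each library of the 4 groups, with the number of listed genes in each title. In DSS the contractile, neuron and glia, and pericyte sums lie lower with thymopentin than with saline in every library, the distal Hox sum lies higher, and the epithelial sums overlap.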

How the data were processed

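Colon RNA of 12 libraries was measured, and per the labels' protocols total RNA was taken with TRIzol and stranded TruSeq libraries were made. The authors deposited FPKM for 55335 genes. Build mm9 and the tools STAR 2.5, FastQC, DESeq 1.22.1 and Cuffnorm are listed, without their roles, in the submitters' processing notes. Whether strand was used in counting stays not given in the sources used here. For genes the authors selected in TNBS or DSS, further deposited tables hold, per the file headers, p-values, FDR, log2 fold changes and log2 values per library.

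Groups and replicate numbers came from the labels. The 13794 genes averaging 1 FPKM or more were fitted as log2(FPKM + 1), with a pseudocount of 1, by limma 3.58.1 in R 4.3.3, with 4 group means over 12 libraries and a trend in the prior variance. P-values were two-sided and adjusted by Benjamini-Hochberg over all tested genes in each of 5 comparisons. The threshold of a call was 0.05. FPKM are not counts, so no count test was run over all genes. Libraries held summed FPKM of 384431 to 532510 and 13160 to 13805 genes at 1 FPKM or more. Read depth per library is not in the FPKM table. Raised from log2, the selected genes' low values (up to 30 reads) were all whole within 0.01 reads after division by a step per library, 2778 of 2778 in TNBS and 4548 of 4548 in DSS. These reads cover only genes selected for change, so they were used to show depth and not tested. The main fit held no replicate block. Deviations from group means of same-numbered libraries correlated at 0.12, 0.27 and 0.48 between the TNBS groups, although thymopentin 1 correlated more with saline 2 (0.29). Those numbers were treated as pairs only in the replicate block and in the count of directions within pairs. Alternatives were another pseudocount, filter, scaling or weighting, each model pair alone, the replicate block, and each library left out.

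All 33 genes were accounted for. In each role group the called genes with the smallest p were named, and 8 genes (Acta2, Actg2, Myh11, Tagln, Cnn1, Des, Mylk and Myocd) always. The 33 genes and the other 13 lists were chosen with earlier results of these data known, so no list test was made. The names of the 3 contraction signalling genes that were lower in DSS saline than in TNBS saline are not reported here. Python 3.11.15, pandas 2.3.3, numpy 2.4.6 and matplotlib 3.10.9 were used for tables and plots.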

Additional observations from a re-analysis of the deposited data

Results flagged for a closer look

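The response to thymopentin differed between the models in 6 genes by limma's test of the DSS log2 fold change minus the TNBS one. The differences were -1.74 for Lmod1, -1.60 for Csrp1, -1.77 for Pgm5, -1.58 for Ppp1r14a, -1.83 for Hspb8 and -1.498 for Cryab. Itga8, below the filter on low values, had every thymopentin library below every saline library in DSS and above every saline library in TNBS. Its difference was not tested among the filtered genes; with no filter it was -0.87 (adjusted p = 0.133).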

How the results depend on the processing

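Each comparison was recomputed under up to 9 other settings and without each of the 12 libraries. Called members in DSS (11 in the report) numbered 2 with no filter on low values, 7 after quantile normalization, 22 with array weights, 24 from the 6 DSS libraries alone, 19 with the replicate block, and 1 to 18 with 1 library left out, all of them lower. For the difference between responses (6 in the report) the numbers were 1 with no filter, 22 with array weights, 13 with the replicate block and 0 to 19 with 1 library left out. In TNBS (0 in the report) array weights called 6 and the replicate block 1. Over all 13794 tested genes, array weights called 2547 in TNBS, 4025 in DSS and 2889 for the difference. The numbers in the report were 92, 2346 and 710. The replicate block called 79 in TNBS, 1944 in DSS and 589 for the difference, and the 6 DSS libraries alone called 1658. Same-numbered DSS libraries correlated at -0.14, 0.04 and -0.14 and share only a number. For DSS saline over TNBS saline the count kept within 1.5 times of 20 in every setting, while its median of 1.14 lay between 0.71 and 1.41 with 1 library left out. Between the thymopentin groups 0 to 2 genes were called with 1 library left out. Of the 30 tested genes, 9 changed sign in at least 1 alternative in TNBS, 2 between the saline groups, 13 between the thymopentin groups and 0 in DSS or in the difference between responses. With array weights Actg2 in TNBS was -0.16 and Actn1 between the saline groups 0.081. Actn1 was 0.12 after quantile normalization and 0.17 after rescaling by the median of ratios. Synpo2 in TNBS was -0.0061 with a pseudocount of 5, -0.0057 after quantile normalization and -0.034 after rescaling by the median of ratios. With 1 library left out, the TNBS values ranged from -0.38 to 0.43 for Actg2, -0.28 to 0.73 for Cnn1, -0.15 to 0.70 for Des, -0.20 to 0.29 for Synpo2, -0.069 to 0.41 for Tpm1, -0.016 to 0.67 for Tpm2, -0.12 to 0.48 for Cald1 and -0.16 to 0.43 for Popdc2, each lowest without TNBS saline 2, and from -0.029 without TNBS thymopentin 3 to 0.57 for Hspb7. Between the saline groups they ranged from -0.076 to 0.41 for Tpm1 and -0.11 to 0.15 for Actn1. The causes were not tested. The estimation of array weights did not reach its convergence tolerance. Depth of the FPKM is unknown, which limits the genes of low FPKM most.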
